A study of Homo sapiens with 3 samples.

Results

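MDH1 and LDHB encode cytosolic malate dehydrogenase and the B subunit of lactate dehydrogenase, and both messages are known for a second, longer protein made when ribosomes read through the normal termination codon (NTC). The members were the transcripts whose gene name in the deposited tables was MDH1 or LDHB, which gave 2 of the 8812 transcripts listed in all 3 libraries. Both passed the minimum that the study set for reads on a transcript, applied here to the mean count of reads in the coding sequence (CDS), as did 5684 transcripts in all. In ribosome profiling, mRNA pieces that a ribosome shields from nuclease are sequenced, so reads count ribosomes on a region. The cells were HEK293T, a human embryonic kidney line carrying the SV40 large T antigen, an insert that the tables of human transcripts did not measure. The untreated group (Untreated A and Untreated B, labelled 0 µg/mL and 24 hours) had 2 libraries. The G418 group (G418 A, 500 µg/mL for 24 hours) had 1, so the G418 values have no replicate, no test between the conditions was run and no p-value is given.

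Lactate dehydrogenase and the malate dehydrogenase encoded by MDH1 move reducing equivalents between NAD and their substrates, and work mainly in the cytosol. Peroxisomes oxidise fatty acids and need NAD to be regenerated inside them. Peroxisomal matrix proteins are imported when PEX5, the receptor for the C-terminal targeting signal PTS1, binds a short motif at their C-terminus. In the readthrough products of MDH1 and LDHB such a motif is present only in the extension, so that a share of each enzyme is sent to peroxisomes. The stop signal that favours this is UGA followed by CUA.

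The 30 bases around each NTC are shown because both members share the stop codon and the bases after it (hg38, from GENCODE v44; capitals mark the NTC, and the sequence is written 5′ to 3′ on the strand of the gene). The MDH1 window lies at chr2:63606973-63607002 on the plus strand and the LDHB window at chr12:21635527-21635556 on the minus strand.
MDH1: ctttcctctgccTGActagacaatgatgtt
LDHB: ctaaaagacctgTGActagtgagctctagg
Both NTCs were followed by CTAG. The MDH1 NTC (chr2:63606985-63606987) lay in exon 9 of 9, and the LDHB NTC (chr12:21635542-21635544) in exon 8 of 8. The annotation holds 1 transcript of each gene tagged as a stop codon readthrough product, and no CDS of any other transcript on the same strand overlapped either extension. Among 4418 transcripts of the analysed set whose sequence matched the reference, searched at the NTC on the strand of the transcript, UGAC was present in 10.0%, UGACUA in 12 (0.272%) and UGACUAG in 4 (0.0905%).

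The extensions differed in length. From the MDH1 NTC to the first in-frame stop codon of the 3′UTR (3′TC) there were 57 nt with the 3′TC included and 18 sense codons. For LDHB there were 21 nt and 6 sense codons. The next base after the 3′TC made the signal UGAC in MDH1 and UAGA in LDHB. The deposited tables left out the first 6 nt after the NTC, so 51 nt were counted for MDH1 and 15 nt for LDHB, with the 3′TC inside in both cases. Each 3′UTR (210 nt in MDH1 and 200 nt in LDHB) held 4 in-frame stop codons. Near copies of these regions exist in the genome. A match of 48 nt on chromosome X, in the pseudogene LDHBP2, was 97.9% identical to the LDHB region, and a match of 61 nt on chromosome 6 beside MDH1P2 was 88.5% identical to the MDH1 region. Reads of the 2 genes and of these copies could be credited to each other, and the values are uncertain to that extent.

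The libraries held 5857230 to 9477972 reads behind their RPM scale (RPM, reads scaled to a fixed total). The ribosome readthrough score (RRTS) is the density of reads from the NTC to the 3′TC divided by the density in the CDS, given here as a percent. Intervals are exact Poisson 95% intervals that cover counting error only.

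Readthrough of both members was readily counted without the drug and was higher in G418 A. Values in groups of 3 follow the order Untreated A, Untreated B, G418 A. In MDH1, 36, 44 and 119 readthrough reads stood beside 2706, 4315 and 2860 CDS reads. The RRTS of MDH1 was 25.4% (interval 17.8 to 35.1%), 19.4% (14.1 to 26.1%) and 79.3% (65.7 to 94.9%). The G418 library lay above both untreated libraries and its interval overlapped neither of theirs. In LDHB there were 27, 29 and 65 readthrough reads beside 11404, 16426 and 10447 CDS reads. The RRTS of LDHB was 15.3% (10.1 to 22.3%), 11.4% (7.66 to 16.4%) and 40.3% (31.1 to 51.4%). Again the intervals of G418 A and of the untreated libraries were apart.

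The untreated mean was 22.4% ± 4.19 (SD, n = 2) for MDH1 and 13.4% ± 2.76 (SD, n = 2) for LDHB. Against that mean, G418 A was 3.54-fold higher for MDH1 and 3.01-fold higher for LDHB. For MDH1 the fold of G418 A was 3.13 over Untreated A (exact conditional 95% interval 2.14 to 4.68) and 4.08 over Untreated B (2.87 to 5.91). For LDHB it was 2.63 over Untreated A (1.65 to 4.28) and 3.52 over Untreated B (2.24 to 5.66). The untreated libraries differed from each other by 1.30-fold in MDH1 (0.816 to 2.07) and 1.34-fold in LDHB (0.764 to 2.35), which counting error covers.

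**Figure D1:**
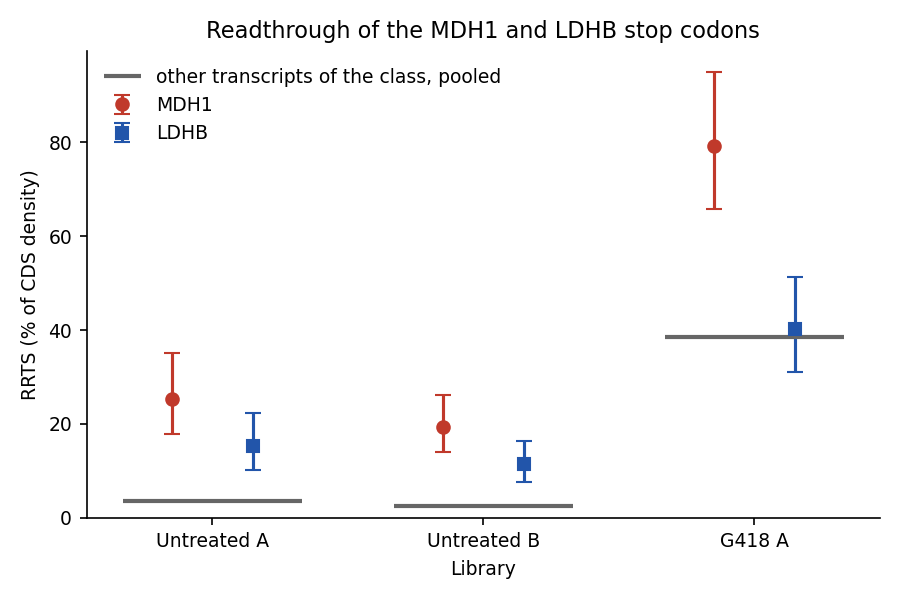
RRTS (percent of CDS density) of MDH1 and LDHB in each library, with exact Poisson 95% intervals of the readthrough reads; horizontal lines are the pooled RRTS of the 559 other UGAC transcripts. Both genes lie above the line in the untreated libraries, and in G418 A the line (38.4%) lies inside the interval of LDHB and below that of MDH1.

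LDHB had the lower RRTS in every library. The ratio of LDHB to MDH1 was 0.605, 0.589 and 0.508. Its exact conditional 95% interval held 1 in Untreated A and not in the other libraries. Per length, however, and not divided by the CDS density, the LDHB extension had the most ribosomes in the untreated libraries. Its readthrough density was 307 RPKM (RPM per kilobase) in Untreated A and 204 RPKM in Untreated B, the highest of the 5684 transcripts in both. In G418 A it was 601 RPKM, rank 16. The MDH1 readthrough density was 121, 91.0 and 323 RPKM, at ranks 11, 8 and 54. The CDS density in Untreated A and Untreated B was 2003 and 1783 RPKM in LDHB and 475 and 468 RPKM in MDH1. The median CDS density of all transcripts was 37.7 and 38.7 RPKM. The LDHB extension was thus more densely occupied than the CDS of 92.1% and 88.0% of transcripts in the untreated libraries, and the MDH1 extension more than 79.8% and 74.6%. These densities include ribosomes at the 3′TC, a codon that makes up more of the short LDHB region, and its part in them was not tested.

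The members were then set beside other UGA stops with the same next base. Without the drug the 559 other UGAC transcripts had a pooled RRTS of 3.08% ± 0.749 (SD, n = 2), and their median was 0 in both untreated libraries. Both members had an RRTS above 0 in both untreated libraries, as did 19.1% of the 561 UGAC transcripts, and both had at least 10% in both, as did 6.6%. MDH1 was exceeded by 34 of 559 other UGAC transcripts in Untreated A and 44 in Untreated B. LDHB was exceeded by 69 and 73. Together the members held 8.29% of all UGAC readthrough reads in Untreated A (exact binomial 95% interval 6.43 to 10.5%) and 7.78% in Untreated B (6.15 to 9.69%), but 1.86% in G418 A (1.61 to 2.15%). These shares are not divided by CDS density, which was high in both members. They therefore mix the amount of translation with readthrough, and the share to be had at equal RRTS was not computed.

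In fold, the class moved further than the members in G418 A, but in percentage points MDH1 moved further than the class. Its pooled RRTS was 38.4%, 12.5-fold the untreated mean, or 10.6-fold Untreated A and 15.04-fold Untreated B. The upper limits of the MDH1 and LDHB folds, given above, lay below these. A narrower view is given by the 50 other UGAC transcripts with at least 10 untreated readthrough reads, a choice that favours high untreated values. Their median fold was 4.96 (quartiles 2.57 and 11.1), and 32 of them had a higher fold than MDH1 and 37 a higher fold than LDHB. Of all UGAC transcripts with that many reads, 80.8% were at least 2-fold higher in G418 A, and so were both members. In percentage points MDH1 was higher by 56.9 and LDHB by 26.9, where the pooled class was higher by 35.3 and the median of the other UGAC transcripts was 33.98 (quartiles 10.8 and 65.9). In G418 A, MDH1 was exceeded by 132 of the 559 and LDHB by 268, so that LDHB (40.3%) was near the class median of 38.7%.

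**Figure D2:**
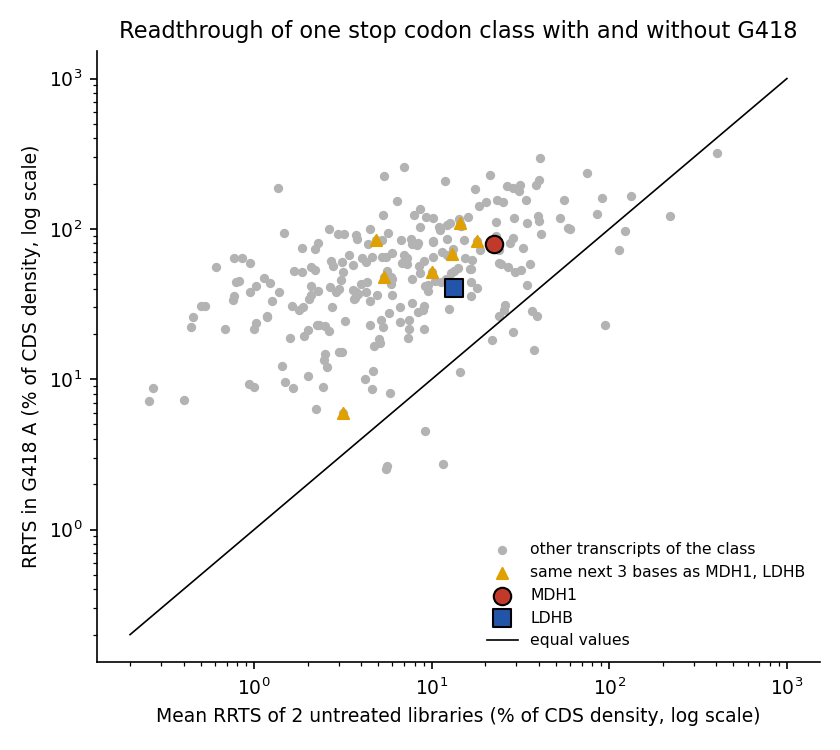
RRTS in G418 A against the mean RRTS of the untreated libraries (both axes percent of CDS density, log scale) for MDH1, LDHB and the 248 other UGAC transcripts above 0 on both axes. Triangles mark transcripts known to share CUA after UGA. Transcripts whose sequence did not match the reference were not searched and have no triangle. A further 225 UGAC transcripts had reads only in G418 A and 75 had none in any library. The rest of the 559 had reads in an untreated library and none in G418 A. None of these can be drawn on log axes.

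The transcripts most like the members carried UGACUA. Only the 440 other UGAC transcripts whose sequence matched the reference could be searched for it. Among them 10 carried it, of which 4 had no readthrough read in Untreated A and 4 none in Untreated B. Their pooled RRTS was 11.2%, 6.80% and 53.8%, a 5.97-fold rise over the untreated mean. None of the 10 exceeded MDH1 in either untreated library, and 2 exceeded LDHB in each. In G418 A, 3 exceeded MDH1 and 6 exceeded LDHB. LMAN1, a cargo receptor of the early secretory pathway, had 13.9%, 12.2% and 68.4%. UGACUAG, the signal of both members, occurred in 2 of the transcripts that could be searched. CGGBP1, which encodes a CGG repeat binding protein, had 18.8%, 17.1% and 83.4%, with only 2 readthrough reads in each untreated library and no in-frame stop codon in its annotated 3′UTR. PHF19, a Polycomb-associated PHD finger protein, had 2.50%, 3.804% and 6.004% over a region of 465 nt.

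Over the 3 libraries, likeness was measured as the distance of log2 RRTS among 85 UGAC transcripts. These had an RRTS above 0 in every library and at least 10 readthrough reads in G418 A. The nearest to MDH1 were CGGBP1 (distance 0.47), BRCA1 (0.73), a DNA repair gene, and KLC4 (0.84), a kinesin light chain. The nearest to LDHB were SLC7A1 (0.38), a cationic amino acid transporter, PHF13 (0.52) and DHX36 (0.74), an RNA helicase. The distance between MDH1 and LDHB was 1.44. SLC7A1 had 15.3%, 11.2% and 52.4%, values close to LDHB in the untreated libraries from 8 reads in each. The other neighbours named here had 2 to 10 readthrough reads in each untreated library, so their distances are rough.

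With at least 10 untreated readthrough reads, 9 UGAC transcripts lay above MDH1 in both untreated libraries and 15 above LDHB. Without that minimum the counts were 11 and 26. The highest was TAF1D, a subunit of the RNA polymerase I factor SL1, at 597%, 214% and 322%, over a counted region of 18 nt. TASOR2 had 182%, 255% and 122%, CPNE8 121%, 143% and 165%, and ARID4B 76.7%, 105% and 161%. NAA38, a subunit of an N-terminal acetyltransferase, had 58.1%, 58.7% and 101% from 21, 40 and 47 reads. IRF2BP2, above LDHB in both untreated libraries but below MDH1 in Untreated B, had 137%, 12.6% and 235%. In G418 A, TAF1D lay between its untreated values, and TASOR2 rested on 4 reads whose interval (33.2 to 312%) held both of its untreated values. These 6 transcripts had 172 to 1184 CDS reads per library, where the members had 2706 or more.

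**Figure D3:**
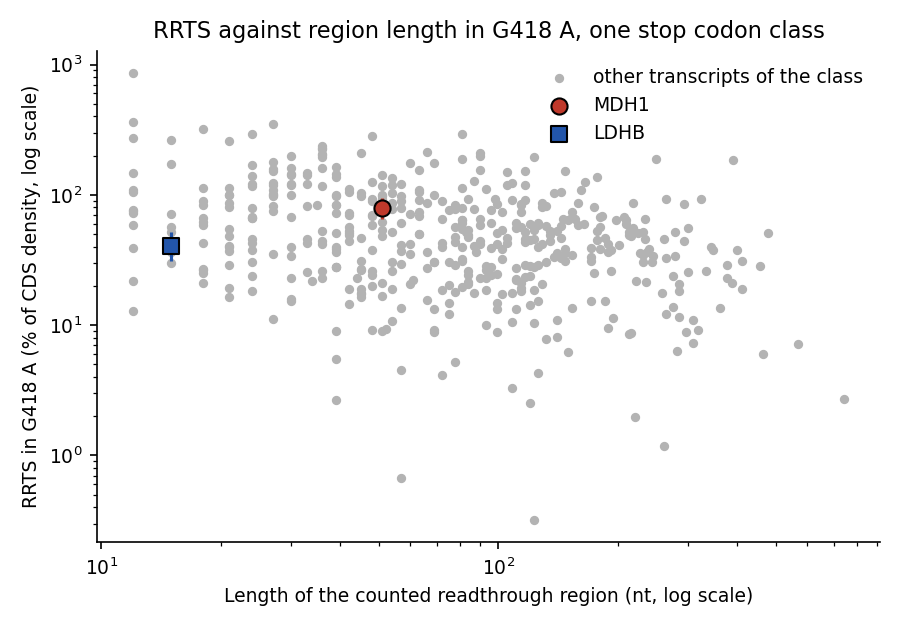
RRTS in G418 A (percent of CDS density, log scale) against the counted length of the readthrough region (nt, log scale) for the 473 other UGAC transcripts above 0, with MDH1 (51 nt) and LDHB (15 nt) and their exact Poisson 95% intervals. The highest values are in the shortest regions.

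The pooled RRTS of the class was higher in short regions than in long ones, so the members were also set beside regions of like length. In the other 3 length bins (24 to 48 nt, and above 99 nt split at 200 nt) it was 6.45%, 2.56% and 1.92% in the untreated mean and 55.9%, 33.4% and 33.8% in G418 A. For counted regions of 51 to 99 nt (158 other UGAC transcripts) the pooled RRTS was 3.73% ± 0.574 (SD, n = 2) untreated and 44.8% in G418 A, where MDH1 had 22.4% and 79.3%. For 12 to 21 nt (66 transcripts) it was 11.9%, 4.09% and 51.1%, and without TAF1D 6.47%, 2.42% and 48.6%, where LDHB had 15.3%, 11.4% and 40.3%. LDHB lay above its length class in both untreated libraries, although in Untreated A its interval held the class value until TAF1D was left out, and in G418 A its interval held the class value.

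Ribosomes past the 3′TC were counted as the 3′UTR reads outside the readthrough region. In MDH1 there were 7, 4 and 151 such reads in 153 nt. Their density was 1.64% (0.661 to 3.39%), 0.589% (0.160 to 1.51%) and 33.5% (28.4 to 39.3%) of the CDS density. In LDHB there were 14, 19 and 89 reads in 179 nt, or 0.667% (0.364 to 1.12%), 0.628% (0.378 to 0.981%) and 4.63% (3.72 to 5.69%). In both genes, G418 A lay above both untreated libraries with intervals apart. The density after the 3′TC over that before it was 0.0648 and 0.0303 for MDH1 in the untreated libraries and 0.423 in G418 A (exact conditional interval 0.330 to 0.542). For LDHB it was 0.0435, 0.0549 and 0.115 (0.0824 to 0.161).

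Among the 502 other UGAC transcripts with at least 30 nt after the 3′TC, 13 had a higher density there than MDH1 in G418 A and 144 a higher density than LDHB. In Untreated A and Untreated B, 34 and 66 of them exceeded MDH1 and 81 and 61 exceeded LDHB. The pooled density of the 502 after the 3′TC was 2.07% in G418 A, but long 3′UTRs weigh most in it. In the 90 of them with 100 to 300 nt after the 3′TC, a range chosen after the MDH1 value was seen, it was 10.9%, the ratio of after to before was 0.232, and 4 exceeded MDH1 and 47 exceeded LDHB. The ratio of these 90 was 0.266 and 0.259 in the untreated libraries, above those of both members, and was no higher in G418 A. In Untreated A and Untreated B, 7 and 11 of the 90 exceeded the density of MDH1 and 10 and 11 that of LDHB. The ratio of all 502 was much lower, at 0.0639, 0.0650 and 0.0506. In Untreated A it was just below that of MDH1 (0.0648). It was above that of MDH1 in Untreated B and that of LDHB in both untreated libraries. Among transcripts of any stop codon with 100 to 300 nt after the 3′TC, the ratio was 0.288, 0.172 and 0.480 where the 3′TC signal was UGAC, as in MDH1 (43 transcripts). It was 0.199, 0.269 and 0.163 where the signal was UAGA, as in LDHB (30 transcripts), so the order of these signals was not the same in every library. In Untreated A and Untreated B these ratios rested on few reads after the 3′TC (8 and 19 for UGAC, 23 and 33 for UAGA), so counting error may cover that order. Without the limit on length these ratios were 0.131, 0.170 and 0.0651 (382 transcripts) and 0.108, 0.120 and 0.0420 (258 transcripts). The tables give no reading frame for these reads.

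**Figure D4:**
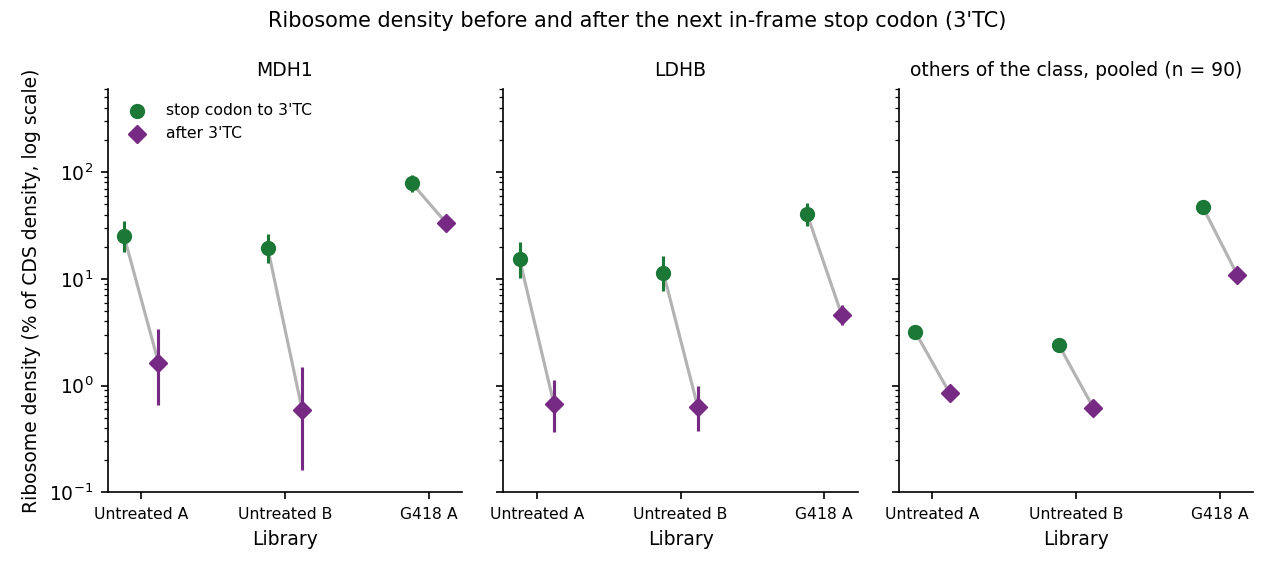
Ribosome density (percent of CDS density, log scale) from the NTC to the 3′TC (circles) and after the 3′TC (diamonds) in each library, for MDH1, LDHB and the 90 other UGAC transcripts pooled; bars are exact Poisson 95% intervals, drawn for the members only. After the 3′TC, MDH1 reached 33.5% in G418 A and LDHB 4.63%.

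The 5′UTR, which is not reached by readthrough, gave another measure of ribosomes outside the CDS. Its density was 16.3% ± 0.597 (SD, n = 2) of the CDS density in MDH1 untreated and 9.52% in G418 A, and 7.73% ± 2.16 (SD, n = 2) and 4.45% in LDHB. The exact Poisson interval of G418 A (5.89 to 14.5% in MDH1 and 3.23 to 5.97% in LDHB) overlapped that of Untreated A in both genes. It overlapped that of Untreated B in MDH1 (11.9 to 20.8%) but lay below it in LDHB (7.81 to 10.9%). Over all other transcripts the pooled 5′UTR density was also lower in G418 A (11.3%, 12.1% and 10.2%), as was the median (5.05%, 6.98% and 4.59%).

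The CDS density of both genes was lower in G418 A, by less than a log2 change of 1. MDH1 had 462, 455 and 396 RPM and LDHB 1947, 1733 and 1448 RPM. On the log2 scale, with G418 A set against the mean of both untreated libraries, MDH1 changed by -0.21 and LDHB by -0.35, where the untreated libraries differed by -0.02 and -0.17 (B over A) and the median of all transcripts was 0.07. The 5th and 95th percentiles of all transcripts were -0.39 and 0.67, so LDHB lay near the lower one. Neither gene passed a log2 change of 1, which 1.14% of transcripts did. Ribosome reads do not separate the amount of mRNA from its translation.

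Related enzymes with other stop signals were mostly without readthrough reads in the untreated libraries, at a depth that bounds only some of them below the members. Of 16 genes of the lactate, malate and glycerol phosphate dehydrogenases and the malate-aspartate shuttle, 11 were analysed. Among the 9 that were not members, none ended in UGAC and only GOT2, the mitochondrial aspartate aminotransferase, had readthrough reads in an untreated library (2.83% and 2.11%). Over all transcripts, 24.0% and 22.3% had such reads. LDHA, the other lactate dehydrogenase subunit, had 0 reads in both untreated libraries, which allows an RRTS of up to 1.31% and 0.823% (3 reads), and 3.76% in G418 A. MDH2, the mitochondrial malate dehydrogenase, had 0 reads untreated (up to 5.25% and 3.00%) and 20.0% in G418 A. The limit was 3.32% and 1.60% in SLC25A11, but 14.1% to 74.8% in GOT1, SLC25A13, GPD2, ME1 and GPD1L, so values like those of the members could not be detected there in every case. In G418 A, 8 of the 9 had readthrough reads, and their pooled RRTS was 13.0% with a median of 10.6%, beside 21.3% and 18.4% over all transcripts analysed. Only SLC25A13, a mitochondrial aspartate/glutamate carrier, was above MDH1, at 94.5% from 15 reads (52.9 to 156%). GOT1 had 38.0%, SLC25A11 20.9%, ME1 10.6%, GPD2 7.04% and GPD1L 0 reads. None of the 11 passed a log2 change of 1 in the CDS (median -0.12).

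**Figure D5:**
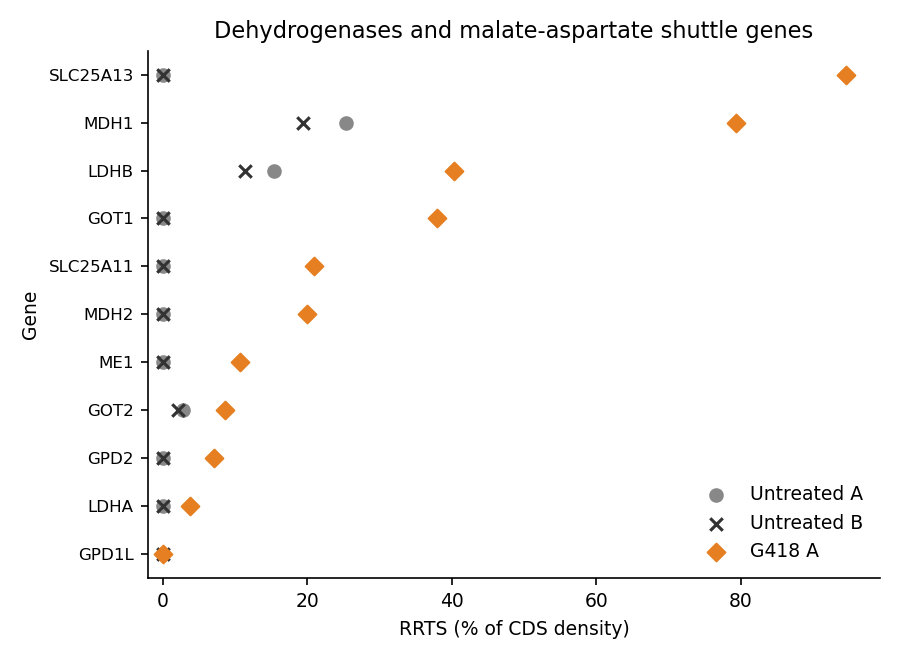
RRTS (percent of CDS density) in each library of the 11 analysed genes of the dehydrogenases and the malate-aspartate shuttle. MDH1 and LDHB are the highest in both untreated libraries, and SLC25A13 and MDH1 in G418 A.

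Peroxisomal genes were looked at in the same way. Of 40 matrix enzymes 14 were analysed, none ending in UGAC, with a pooled RRTS of 2.65%, 1.93% and 31.1%. SCP2, the sterol carrier and thiolase, had 50.8%, 57.3% and 126%, above both members in every library. These values came from 6, 9 and 15 reads over 18 nt, and the interval in G418 A (70.7 to 208%) overlapped that of MDH1. PHYH, the phytanoyl-CoA hydroxylase, had the highest value in G418 A at 342% from 5 reads, and ACAA1, HACL1, LONP2 and ACAD11 had no readthrough read in any library. Of 17 peroxins 7 were analysed, with a pooled RRTS of 12.2%, 0% and 49.4%. PEX3, PEX6 and PEX14 had no readthrough read in G418 A. PEX5, itself a UGAC transcript, had 0, 0 and 3 readthrough reads. No gene of either list passed a log2 change of 1 in the CDS (medians -0.05 and 0.04). In a list of 14 mammalian genes described as read through, 7 were analysed. The 5 that were not members had a pooled RRTS of 3.42%, 9.18% and 44.2%, with MDH1 the highest of the list in G418 A and ACP2 the lowest at 11.2% from 1 read (0.283 to 62.2%). In Untreated B, AGO1 (38.8%, 4 reads) and ACP2 (29.0%, 3 reads) were above both members. AMD1, a polyamine synthesis enzyme, was the only member of these lists whose CDS passed a log2 change of 1 (1.01), and it did not with TMM (0.94) or median-of-ratios factors (0.93).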

How the data were processed

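Ribosome profiling was analysed in 3 libraries (untreated, n = 2; G418, n = 1), grouped by the treatment named in the labels. The authors removed duplicate reads by molecular identifier, trimmed linkers, aligned with STAR to hg38 with GENCODE 30 and kept primary alignments, and assigned footprints of 28 to 35 nt to the A site on 1 transcript per gene. Base calls came from CASAVA 1.8 per the submitters' processing notes. The authors deposited RPM values for regions, RPKM densities, whole-number counts and the RRTS as a ratio of densities. The first 18 and last 15 nt of the CDS were left out. All nonzero RPM values were whole multiples of 1 read (100%, tolerance 0.02), so reads were recovered by division. The deposited CDS counts were 1 lower for most transcripts of Untreated A.

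RRTS was computed from recovered reads for transcripts listed in every library whose mean number of CDS reads was 128 or more. Exact Poisson, conditional and binomial intervals used scipy 1.17.1, checked on simulated data. They cover counting error only, and a count of 0 allows up to 3 reads. TMM factors came from edgeR 4.0.16 and no differential test was run. Sequence came from hg38 with GENCODE 44 and was used for 7502 of 9706 transcripts (77.3%) with the same ID and version.

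Members and lists were chosen with earlier results of these data known. Named transcripts were the members and PEX5, the 3 nearest to each by RRTS, up to 5 above each without the drug, those with UGACUAG, the extremes of each list and all analysed dehydrogenase genes. An item that this rule selects is not reported here. LMAN1 and AMD1 were named, and the comparisons by region length, past the 3′TC, in the 5′UTR, by share of reads and by density beside CDS densities were added, after the data were seen. Some added comparisons had several versions, and not every value of each version is given.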

Additional observations from a re-analysis of the deposited data

How the results depend on the processing

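No paired analysis was possible because the groups share only 1 replicate letter (A) and the G418 group has 1 library. Values moved by less than the replicate spread or the counting interval in 52 of 94 alternatives, a count that does not measure robustness. Alternatives that left out an untreated library were judged against the spread of the same 2 libraries, which they could hardly leave. Those that took the RRTS as deposited only repeated the main values. The rise of both members in G418 A kept its direction in each alternative fold. The place of LDHB in G418 A against the middle of its class did turn: its percentile of 52.1 became 49.4 among regions within 1.5 times its length and 40 among UGACUA, and its RRTS of 40.3% lay above the pooled 38.4% but below the 40.7% of regions over no other annotated CDS. The RRTS as deposited equalled the recomputed one. Leaving out an untreated library gave folds of 3.13 to 4.08 for MDH1 and 2.63 to 3.52 for LDHB. Readthrough RPM not divided by CDS density gave 2.35-fold for LDHB.

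The occupancy of the whole 3′UTR was 7.57%, 5.30% and 45.0% for MDH1 and 1.80%, 1.46% and 7.39% for LDHB (Untreated A, Untreated B, G418 A), and the ratio of LDHB to MDH1 was then 0.238, 0.276 and 0.164. This measure adds the nucleotides past the 3′TC.

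The percent of the compared transcripts at or below MDH1 was 93.9, 92.1 and 76.4 among other UGAC transcripts. It was 95.8, 95.6 and 84.7 among all UGA, 100, 100 and 70 among UGACUA, 96.6, 96.4 and 89.1 among all transcripts, and 97.5, 95.7 and 90.0 by the lower counting limit. With at least 500 CDS reads it was 93.8 in Untreated B. For LDHB it was 87.7, 86.9 and 52.1 among other UGAC, 92.7, 92.6 and 64.0 among all UGA, 80, 80 and 40 among UGACUA, 94.0, 94.0 and 72.8 among all transcripts, and 96.4, 93.4 and 69.2 by the lower limit. Among regions within 1.5 times its length it was 91.8 in Untreated B. The cause of these shifts was not tested.

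The log2 CDS change of MDH1 was -0.28 with TMM and -0.28 with median-of-ratios factors. For LDHB it was -0.42 with TMM and -0.42 with median-of-ratios factors. The pooled RRTS of other UGAC transcripts was 2.30% untreated and 35.2% in G418 A with at least 500 CDS reads, 39.3% in G418 A with no minimum, and 40.7% for regions over no other annotated CDS, the last chosen after seeing the data. Depth limits the members too, as LDHB had 27 and 29 readthrough reads in Untreated A and Untreated B. Most UGAC transcripts had no untreated readthrough read, so ranks against them rest on few reads.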
